A study of Mus musculus with 4 samples.

Results

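Members of the bone morphogenetic protein (BMP) and activin arms of the TGF-beta superfamily were followed by RNA-seq in mouse embryonic fibroblasts (MEF) that carry or lack *Hmga2*, the gene of an architectural chromatin protein. The genes described were chosen by name and by role: the Id targets *Id1*, *Id2*, *Id3* and *Id4*, the BMP ligand genes *Bmp2* and *Bmp4*, the activin subunit gene *Inhba*, the secreted antagonist genes *Grem1* and *Fst*, and the pseudoreceptor gene *Bambi*. They are 10 of the 20805 protein-coding genes to which a transcript of the deposited table could be assigned, and they hold 15 of its 63759 transcripts. Transcripts were assigned by position on the mm10 genome and by strand, and each gene was represented by the transcript with the longest gene body. The 4 libraries are *Hmga2*+/+ Ctrl, *Hmga2*+/+ TGFB1, *Hmga2*-/- Ctrl and *Hmga2*-/- TGFB1, with 1 library for each. All were made from total RNA of immortalised C57BL/6 MEF, derived at embryonic day 15.5 from bodies without head, limbs, tail and viscera. Every culture was starved overnight in 1% foetal calf serum (FCS). The TGFB1 cultures then received 10 ng/ml of human recombinant TGFB1 for 24 h, and the Ctrl cultures received the vehicle, water. The cells were immortalised with simian virus 40, and the sources do not say how many embryos or lines stand behind each genotype. The titles write the knockout as *Hmga2*-/-, whereas its genotype field writes Hmga-/-.

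BMPs bind receptor kinases that phosphorylate SMAD1, SMAD5 and SMAD9, and the Id genes are classic direct targets of these factors. Id proteins are helix-loop-helix proteins without a DNA-binding region, and they hold E proteins and other partners away from DNA. TGFB1 and the activins act mainly through SMAD2 and SMAD3, while Gremlin 1 captures BMPs, follistatin captures activins, and BAMBI resembles a type I receptor without a kinase domain. In fibroblasts the pathways share the co-factor SMAD4 and several inhibitors.

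Levels are given in RPKM, the reads per kilobase of transcript, scaled to the mapped reads of the library. The steps between the low values of each library corresponded to whole reads and gave a depth of 56140000 to 57300000 mapped reads, so that 3 reads per kilobase of transcript are worth 0.0524 to 0.0534 RPKM. Each interval below is a 95% interval for counting error alone, computed from the reads so derived. As each condition has 1 library, no difference has a replicate check and none was tested between conditions. A gene is said to have risen or fallen where the ratio of 2 libraries was at least 1.5. These are bulk samples, in which fewer cells that express a gene and less RNA per cell cannot be told apart.

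The libraries carried the levels that their labels call for. *Hmga2* had 14.8 RPKM in *Hmga2*+/+ Ctrl and 40.7 RPKM in *Hmga2*+/+ TGFB1, and it had 0 reads in both *Hmga2*-/- libraries, where the 95% intervals end at 0.0153 and 0.0152 RPKM. Among known TGFB1 targets, *Ctgf*, a matricellular protein gene, rose from 13.2 to 173 RPKM with *Hmga2* and from 24.9 to 359 RPKM without it, and *Tagln*, a smooth muscle cytoskeleton gene, rose from 9.66 to 64.8 and from 18.1 to 109 RPKM. All 8 fibroblast markers reached at least 1 RPKM in each library, with a summed level of 1874 to 2263 RPKM. Single markers moved with TGFB1 beside the results below: *Dcn* fell 2.69-fold in *Hmga2*+/+ and 4.08-fold in *Hmga2*-/- MEF, *Pdgfra* 2.18-fold and 1.77-fold and *Col3a1* 1.63-fold and 1.68-fold, while *Thy1* rose 1.61-fold and 2.16-fold and *Pdgfrb* rose 1.58-fold in *Hmga2*-/- MEF. The other 3 of the 8 stayed within 1.5-fold in both genotypes. Among markers of other cells, the summed level was 0.403 to 1.04 RPKM for 4 epithelial genes, 1.26 to 1.63 RPKM for 3 haematopoietic genes and at most 0.006 RPKM for 3 skeletal muscle genes, of which *Myod1* and *Myog* were at 0. It was 3.89 and 4.86 RPKM in the *Hmga2*+/+ and 7.12 and 8.14 RPKM in the *Hmga2*-/- libraries for 4 endothelial genes, in both cases with Ctrl first. Within this sum *Kdr* rose 4.01-fold and 5.08-fold with TGFB1 and *Tek* fell 8.33-fold and 8.24-fold, while *Pecam1* and *Cdh5* were at most 0.048 RPKM. *Kdr* reached 7.39 RPKM in *Hmga2*-/- TGFB1 and *Tek* 5.65 RPKM in *Hmga2*-/- Ctrl. *Tek* was 2.05-fold higher in *Hmga2*-/- than in *Hmga2*+/+ Ctrl and 2.08-fold higher with TGFB1. *Kdr* was 1.31-fold and 1.66-fold higher. For 4 bone or cartilage genes the 2 Ctrl libraries summed to 0.488 and 0.735 RPKM and the TGFB1 libraries to 1.62 and 1.26 RPKM. For 3 neural or glial genes the Ctrl libraries summed to 1.25 RPKM each and the TGFB1 libraries to 2.99 and 4.47 RPKM. The part of such cells in the results was not tested.

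The first question was how the 10 genes respond to TGFB1 in each genotype. In *Hmga2*+/+ MEF 4 of the 10 genes rose and 4 fell, while 11.4% of the 10737 protein-coding genes that reached 1 RPKM in any library rose and 16.8% fell. In *Hmga2*-/- MEF 4 rose and 4 fell as well, against 13.1% and 15.1% of all genes. The 4 that fell were *Id1*, *Id2*, *Id3* and *Id4*, and the 4 that rose were *Bmp2*, *Inhba*, *Grem1* and *Fst*, in each genotype. *Bmp4* and *Bambi* stayed within the limit in both. All 10 genes passed the minimum of 1 RPKM, and *Id4* passed it only through its Ctrl libraries. The plot of levels shows each gene in the 4 libraries.

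**Figure D1:**
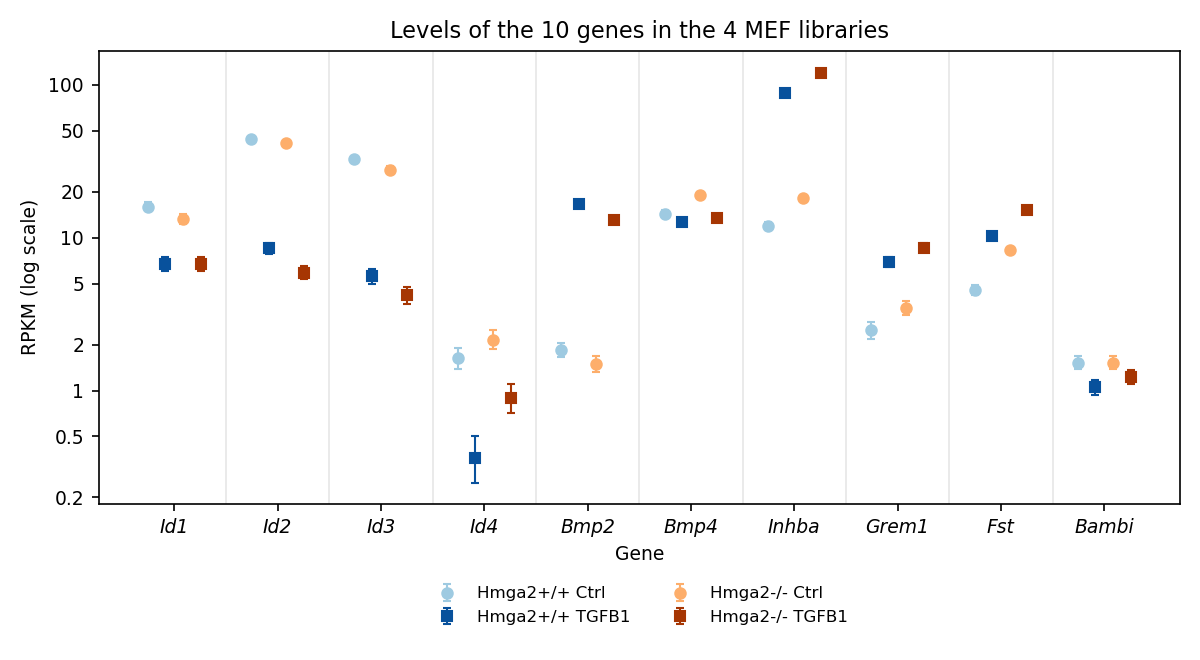
RPKM on a log axis for the 10 genes in the 4 libraries (circles, Ctrl, and squares, TGFB1), with bars for the 95% counting interval. The 4 Id genes sit lower in the TGFB1 than in the Ctrl library of either genotype, and *Bmp2*, *Inhba*, *Grem1* and *Fst* sit higher, with *Inhba* reaching 88.3 and 121 RPKM.

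*Id2*, on the minus strand of chromosome 12 (25093799 to 25096092, mm10), had the highest level of the 10 genes in both Ctrl libraries. It was at 44.3 RPKM in *Hmga2*+/+ Ctrl, 8.54 RPKM in *Hmga2*+/+ TGFB1, 41.7 RPKM in *Hmga2*-/- Ctrl and 5.91 RPKM in *Hmga2*-/- TGFB1. It fell 5.18-fold in *Hmga2*+/+ MEF (log2 change −2.37, interval −2.50 to −2.25) and 7.06-fold in *Hmga2*-/- MEF (log2 change −2.82, interval −2.97 to −2.67). Among all genes tested, these changes rank 65th and 43rd from the lowest. *Id3*, on the plus strand of chromosome 4 (136143822 to 136145392), took nearly the same course. Its level went from 32.7 to 5.58 RPKM with *Hmga2* and from 27.9 to 4.19 RPKM without it. The fall was 5.87-fold (log2 change −2.55, interval −2.73 to −2.38) and 6.66-fold (log2 change −2.73, interval −2.94 to −2.53), which placed *Id3* 55th and 50th from the lowest. For both genes each TGFB1 library lay far below each Ctrl library.

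*Id1*, on the plus strand of chromosome 2 (152736251 to 152737410), is often read as the standard BMP target, and it fell by less. It was at 16.0 RPKM in *Hmga2*+/+ Ctrl, 6.77 RPKM in *Hmga2*+/+ TGFB1, 13.2 RPKM in *Hmga2*-/- Ctrl and 6.73 RPKM in *Hmga2*-/- TGFB1. The fall was 2.36-fold in *Hmga2*+/+ MEF (log2 change −1.24, interval −1.42 to −1.06) and 1.97-fold in *Hmga2*-/- MEF (log2 change −0.98, interval −1.16 to −0.79). The intervals of *Id1* and of *Id2* or *Id3* did not overlap in either genotype. *Id4*, on the plus strand of chromosome 13 (48261427 to 48264036), was the scarcest Id gene in every library. It went from 1.63 RPKM (151 reads) to 0.359 RPKM (34 reads) with *Hmga2* and from 2.16 RPKM (202 reads) to 0.891 RPKM (84 reads) without it. Its fall was 4.53-fold (log2 change −2.18, interval −2.76 to −1.64) and 2.42-fold (log2 change −1.27, interval −1.66 to −0.90), with the wide intervals that few reads give.

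The promoters of the Id genes are shown because these genes fell together, and because SMAD proteins bind short GC-rich and GTCT motifs. RefSeq (GRCm38.p6) gave a promoter of 300 bases, from 250 before to 50 after the transcription start, for *Id2* (chr12:25096043-25096342, minus strand), *Id3* (chr4:136143572-136143871, plus strand) and *Id4* (chr13:48260866-48261165, plus strand). They are printed from 5′ to 3′ with GGCGCC, the site linked to SMAD1 and SMAD5, and GTCT or its complement AGAC, the SMAD-binding element, in capitals.
*Id2*: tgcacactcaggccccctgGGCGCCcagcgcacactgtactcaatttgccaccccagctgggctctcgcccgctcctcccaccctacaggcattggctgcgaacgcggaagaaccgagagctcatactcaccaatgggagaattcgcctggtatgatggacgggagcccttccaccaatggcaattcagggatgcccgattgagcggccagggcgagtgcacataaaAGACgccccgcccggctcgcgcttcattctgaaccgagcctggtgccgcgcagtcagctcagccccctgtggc
*Id3*: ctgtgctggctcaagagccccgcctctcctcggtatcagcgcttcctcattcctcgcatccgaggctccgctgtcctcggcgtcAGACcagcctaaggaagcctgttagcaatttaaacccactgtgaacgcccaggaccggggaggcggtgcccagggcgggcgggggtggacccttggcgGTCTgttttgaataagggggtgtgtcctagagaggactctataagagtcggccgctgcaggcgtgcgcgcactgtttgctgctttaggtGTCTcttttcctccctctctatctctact
*Id4*: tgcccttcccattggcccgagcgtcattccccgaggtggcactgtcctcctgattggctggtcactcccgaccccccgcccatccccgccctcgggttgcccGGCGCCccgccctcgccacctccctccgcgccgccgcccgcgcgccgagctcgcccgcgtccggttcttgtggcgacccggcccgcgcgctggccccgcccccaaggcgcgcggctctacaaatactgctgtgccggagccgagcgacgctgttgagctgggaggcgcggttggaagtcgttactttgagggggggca
Both strands were searched, and no match of one motif overlapped another. The *Id2* window holds 1 GGCGCC and 1 GTCT or AGAC, the *Id3* window holds 0 and 3, and the *Id4* window holds 1 and 0. Over the 32851 promoters of the same length, 11.9% hold GGCGCC and 88.0% hold GTCT or AGAC, with a median of 2 of the latter. The windows of *Id2* and *Id3* start from the same base as the counted transcript, whereas the RefSeq start of *Id4* lies 311 bases upstream of it. A match of letters describes the window and is no evidence of binding.

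The summed level of the 4 Id genes went from 94.6 to 21.2 RPKM with TGFB1 in *Hmga2*+/+ MEF and from 85.0 to 17.7 RPKM in *Hmga2*-/- MEF. Their composition shifted as well. *Id2* made up 46.8% and 49.1% of the sum in the *Hmga2*+/+ and *Hmga2*-/- Ctrl libraries and 40.2% and 33.3% in the TGFB1 libraries. *Id3* made up 34.6% and 32.8% without and 26.3% and 23.6% with TGFB1. The share of *Id1* was 16.9% and 15.6% in the Ctrl libraries and 31.9% and 38.0% in the TGFB1 libraries, so that in *Hmga2*-/- TGFB1 *Id1* and not *Id2* was the Id gene with the highest level. The intervals of those levels, 6.73 RPKM for *Id1* and 5.91 RPKM for *Id2*, overlapped.

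Among the ligand genes, *Bmp2* and *Inhba* rose strongly and *Bmp4* stayed within the limit. *Bmp2*, on the plus strand of chromosome 2 (133552159 to 133562896), encodes a BMP that acts through the receptors which drive Id genes. It was at 1.85 RPKM in *Hmga2*+/+ Ctrl, 16.7 RPKM in *Hmga2*+/+ TGFB1, 1.49 RPKM in *Hmga2*-/- Ctrl and 13.0 RPKM in *Hmga2*-/- TGFB1. The rise was 9.02-fold (log2 change 3.17, interval 3.02 to 3.33) and 8.71-fold (log2 change 3.12, interval 2.95 to 3.30), the 51st and 57th highest of all genes tested. *Bmp4*, on the minus strand of chromosome 14 (46383525 to 46390669), encodes the other main BMP of fibroblasts. Its 4 levels were 14.4, 12.6, 19.1 and 13.4 RPKM in the same order, which gives a log2 change of −0.19 (interval −0.29 to −0.09) in *Hmga2*+/+ and −0.51 (interval −0.60 to −0.41) in *Hmga2*-/- MEF. Both intervals lie below 0 and neither change reached 1.5-fold.

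The balance between the BMP genes differed between the treatments. *Bmp4* exceeded *Bmp2* by 7.78-fold in *Hmga2*+/+ Ctrl and by 12.8-fold in *Hmga2*-/- Ctrl. With TGFB1 the ratio of *Bmp4* to *Bmp2*, in RPKM, stood at 0.757 with and 1.03 without *Hmga2*. The sum of the *Bmp2* and *Bmp4* levels was 16.3 and 20.6 RPKM in the Ctrl libraries and 29.3 and 26.4 RPKM in the TGFB1 libraries, with *Hmga2*+/+ first in each pair.

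*Inhba*, on the plus strand of chromosome 13 (16014451 to 16027211), encodes the beta A subunit that forms activin A. It was at 11.9 RPKM in *Hmga2*+/+ Ctrl, 88.3 RPKM in *Hmga2*+/+ TGFB1, 18.2 RPKM in *Hmga2*-/- Ctrl and 121 RPKM in *Hmga2*-/- TGFB1, the highest value of any of the 10 genes. It rose 7.44-fold in *Hmga2*+/+ MEF (log2 change 2.90, interval 2.80 to 2.99) and 6.61-fold in *Hmga2*-/- MEF (log2 change 2.73, interval 2.65 to 2.80). *Fst*, on the minus strand of chromosome 13 (114452262 to 114458951), encodes the activin antagonist follistatin. It went from 4.56 to 10.2 RPKM with *Hmga2* and from 8.28 to 15.2 RPKM without it. The rise was 2.24-fold (log2 change 1.16, interval 1.04 to 1.29) and 1.83-fold (log2 change 0.88, interval 0.78 to 0.97). Since *Inhba* rose more than *Fst*, the ratio of their RPKM went from 2.61 to 8.66 with *Hmga2* and from 2.20 to 7.93 without it.

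*Grem1*, on the minus strand of chromosome 2 (113748675 to 113758648), encodes Gremlin 1, which binds BMP2 and BMP4. It was at 2.47 RPKM in *Hmga2*+/+ Ctrl, 6.97 RPKM in *Hmga2*+/+ TGFB1, 3.48 RPKM in *Hmga2*-/- Ctrl and 8.63 RPKM in *Hmga2*-/- TGFB1. It rose 2.82-fold (log2 change 1.495, interval 1.27 to 1.72) and 2.48-fold (log2 change 1.31, interval 1.12 to 1.502). *Bmp2* rose more than its antagonist, and the ratio of *Bmp2* to *Grem1* went from 0.749 to 2.40 with *Hmga2* and from 0.429 to 1.51 without it. The ratio of *Bmp4* to *Grem1* went the other way, from 5.83 to 1.81 and from 5.49 to 1.56.

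The promoters of *Grem1* and *Inhba* are shown as those of genes that rose, for comparison with the Id genes. The RefSeq windows (GRCm38.p6) are chr2:113758599-113758898 on the minus strand for *Grem1* and chr13:16011601-16011900 on the plus strand for *Inhba*, again from 5′ to 3′ with the same motifs in capitals.
*Grem1*: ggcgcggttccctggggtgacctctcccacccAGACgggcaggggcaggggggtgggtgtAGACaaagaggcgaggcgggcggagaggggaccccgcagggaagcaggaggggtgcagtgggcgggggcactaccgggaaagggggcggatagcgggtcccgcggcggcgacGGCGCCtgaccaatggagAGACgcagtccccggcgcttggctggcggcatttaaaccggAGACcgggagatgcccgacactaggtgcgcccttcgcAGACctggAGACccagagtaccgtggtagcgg
*Inhba*: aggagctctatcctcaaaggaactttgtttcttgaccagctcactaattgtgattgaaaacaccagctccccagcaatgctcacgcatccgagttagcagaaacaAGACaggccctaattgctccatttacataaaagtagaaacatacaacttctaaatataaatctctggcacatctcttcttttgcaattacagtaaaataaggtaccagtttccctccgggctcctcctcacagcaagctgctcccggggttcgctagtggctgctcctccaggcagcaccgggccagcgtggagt
The *Grem1* window holds 1 GGCGCC and 6 GTCT or AGAC, above the median of 2 over all promoters. The *Inhba* window holds 0 and 1. The windows differ in base composition: G and C make up 70.7% of the *Grem1* window and 47.7% of the *Inhba* window, against a median of 52.7% over all promoters, and 63.3%, 60% and 73.3% for *Id2*, *Id3* and *Id4*. The *Inhba* window starts from a RefSeq start 2600 bases upstream of the counted transcript, so it may not be the promoter of that transcript. The window of *Bmp4*, not printed, holds 0 GGCGCC and 2 GTCT or AGAC. These 6 genes are those of the 10 with an entry in the promoter table.

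*Bambi*, whose product dampens TGF-beta and BMP signals at the receptor, was low in every library. It was at 1.52 RPKM in *Hmga2*+/+ Ctrl, 1.05 RPKM in *Hmga2*+/+ TGFB1, 1.52 RPKM in *Hmga2*-/- Ctrl and 1.23 RPKM in *Hmga2*-/- TGFB1. The log2 change was −0.54 (interval −0.76 to −0.32) in *Hmga2*+/+ and −0.31 (interval −0.51 to −0.10) in *Hmga2*-/- MEF, in both cases under the 1.5-fold limit. The plot of both responses sets the 10 genes beside all others.

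**Figure D2:**
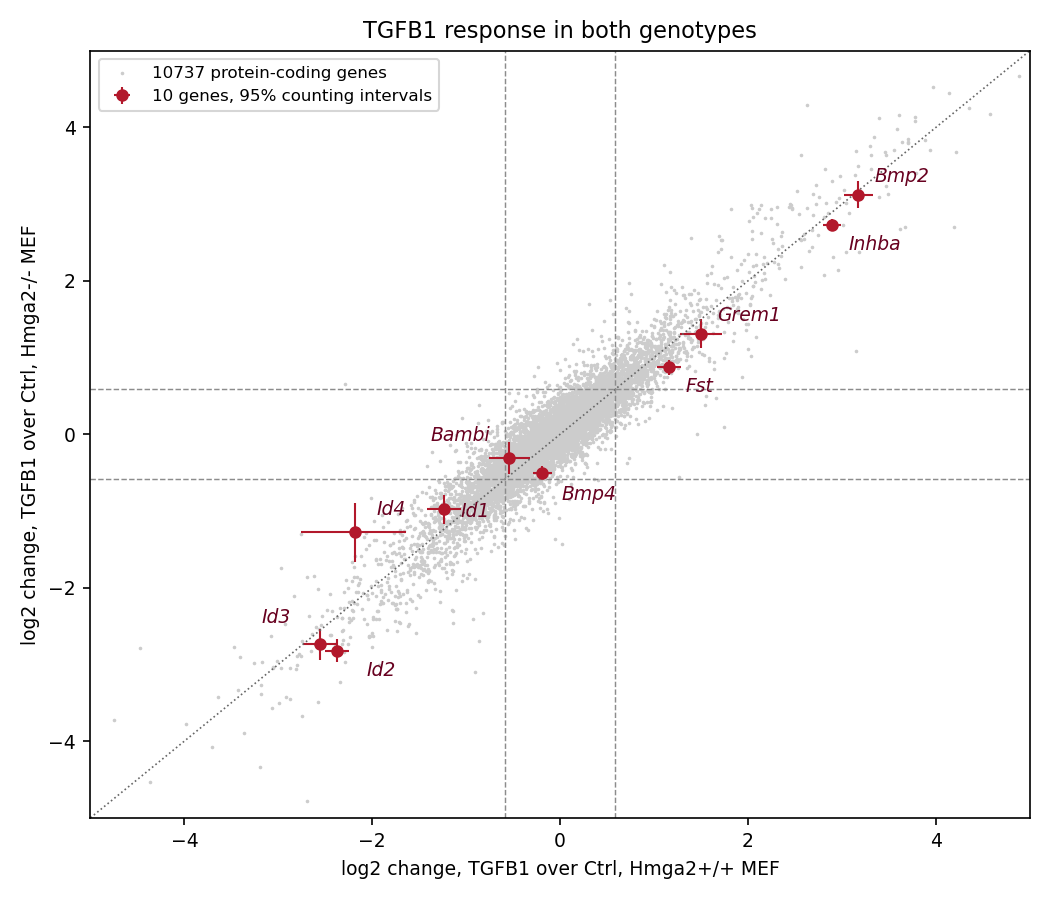
Log2 change with TGFB1 in *Hmga2*+/+ MEF (horizontal axis) against that in *Hmga2*-/- MEF (vertical axis) for 10737 protein-coding genes in grey, of which 25 lie outside the axes, and for the 10 genes in red with 95% counting intervals. Dashed lines mark 1.5-fold and the dotted line equal responses. The Id genes lie at the lower left and *Bmp2* and *Inhba* at the upper right.

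The second question was whether the genotypes differ within each treatment. In Ctrl MEF 2 of the 10 genes, *Fst* and *Inhba*, were at least 1.5-fold higher in *Hmga2*-/- than in *Hmga2*+/+ and 0 were lower, against 2.37% and 1.64% of all genes. *Fst* was 1.82-fold higher (8.28 against 4.56 RPKM, log2 difference 0.86, interval 0.73 to 0.99), and its interval lay wholly past the limit. *Inhba* was 1.53-fold higher (18.2 against 11.9 RPKM, log2 difference 0.62, interval 0.50 to 0.73), and its interval spans the limit. With a pseudocount of 1 RPKM the call of *Inhba* was lost (log2 difference 0.58), and with a limit of 2-fold both were. *Fst*, the antagonist, and *Inhba*, the gene of the subunit it captures, were thus both higher without *Hmga2*. This was not particular to the pair, as the TGFB1 targets *Ctgf* and *Tagln* were 1.89-fold and 1.87-fold higher in *Hmga2*-/- Ctrl. The log2 difference of *Grem1* was 0.49 (interval 0.24 to 0.74), that of *Bmp4* 0.41 (interval 0.32 to 0.50) and that of *Id4* 0.41 (interval 0.10 to 0.72). *Bmp2* differed by −0.31 (interval −0.53 to −0.09) and *Id1*, *Id2* and *Id3* by −0.27, −0.09 and −0.23, all on the log2 scale and within the limit.

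In TGFB1 MEF 1 of the 10 genes, *Id4*, was at least 1.5-fold higher in *Hmga2*-/- and 0 were lower, against 3.11% and 1.98% of all genes. *Id4* was 2.48-fold higher (0.891 against 0.359 RPKM, 84 against 34 reads, log2 difference 1.31, interval 0.72 to 1.93). Both levels are under 1 RPKM, and with a pseudocount of 1 RPKM the log2 difference was 0.48 and the call was lost. *Id2* and *Id3* stood on the other side, with log2 differences of −0.53 (interval −0.71 to −0.35) and −0.41 (interval −0.67 to −0.16), and *Id1* was level at −0.01 (interval −0.22 to 0.21). The Id genes therefore did not differ in 1 direction. *Fst* was 1.49-fold higher, just under the limit (log2 difference 0.57, interval 0.48 to 0.66), and *Inhba* differed by 0.45 (interval 0.41 to 0.49). *Bmp2* remained lower in *Hmga2*-/-, with a log2 difference of −0.36 (interval −0.44 to −0.29). For *Bambi* the log2 difference was 0.00 in Ctrl and 0.23 (interval 0.01 to 0.46) in TGFB1 MEF. The plot of genotype differences gives all of these values.

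**Figure D3:**
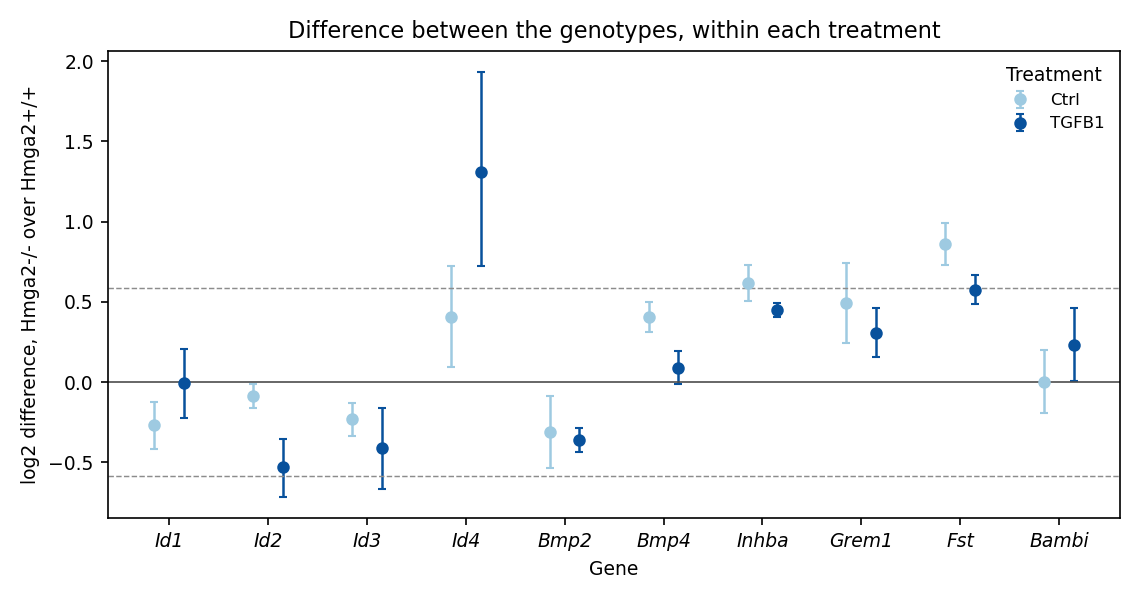
Log2 difference between *Hmga2*-/- and *Hmga2*+/+ MEF for the 10 genes, in Ctrl (light) and in TGFB1 (dark) libraries, with 95% counting intervals and dashed lines at 1.5-fold. *Inhba* and *Fst* lie past the upper line in Ctrl, and *Id4* does in TGFB1 MEF at 1.31.

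The third question was whether the response itself differed between the genotypes. The difference of the log2 changes, *Hmga2*-/- minus *Hmga2*+/+, reached the limit upwards for 1 of the 10 genes, *Id4*, and downwards for 0, against 2.05% and 1.5% of all genes. For *Id4* it was 0.90 (interval 0.25 to 1.55), since the gene fell by less in *Hmga2*-/- MEF, and the interval spans the limit. The call was lost with a pseudocount of 1 RPKM, where the difference was 0.21, and with a limit of 2-fold. *Id1* also fell by less in *Hmga2*-/- MEF (difference 0.26, interval 0.01 to 0.52), and *Id2* fell by more (difference −0.45, interval −0.64 to −0.25). For *Id3* the difference was −0.18 (interval −0.45 to 0.09), which includes 0. The difference was negative for 7 of the 10 genes, against a median over all genes of 0.05, or −0.01 after rescaling by the median ratio. Among the 7 were the 4 genes that rose. Their differences were −0.05 for *Bmp2* (interval −0.28 to 0.18), −0.17 for *Inhba* (interval −0.29 to −0.05), −0.18 for *Grem1* (interval −0.47 to 0.10) and −0.29 for *Fst* (interval −0.45 to −0.13). The intervals of *Inhba* and *Fst* excluded 0 on counting error alone. These were the genes whose Ctrl levels already stood higher without *Hmga2*, in libraries that both comparisons share. For *Bmp4* the difference was −0.32 (interval −0.46 to −0.18).

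The order of the levels, per length, turned over with treatment. In *Hmga2*+/+ Ctrl it ran from *Id2* and *Id3* through *Id1*, *Bmp4*, *Inhba*, *Fst* and *Grem1* to *Bmp2*, *Id4* and *Bambi*, where the intervals of *Id1* and *Bmp4* overlapped, as did those of *Bmp2* with *Id4* and of *Id4* with *Bambi*. In *Hmga2*+/+ TGFB1 it ran from *Inhba* through *Bmp2*, *Bmp4*, *Fst*, *Id2*, *Grem1*, *Id1* and *Id3* to *Bambi* and *Id4*, with overlap between *Grem1* and *Id1* and between *Id1* and *Id3*. The *Hmga2*-/- Ctrl library also began with *Id2* and *Id3*, followed by *Bmp4*, *Inhba*, *Id1*, *Fst*, *Grem1*, *Id4*, *Bambi* and *Bmp2*. The *Hmga2*-/- TGFB1 library ran from *Inhba*, *Fst*, *Bmp4*, *Bmp2*, *Grem1*, *Id1*, *Id2* and *Id3* to *Bambi* and *Id4*. In these, overlap joined *Bmp4* with *Inhba* and *Bambi* with *Bmp2* without TGFB1, and *Bmp4* with *Bmp2* and *Id1* with *Id2* with TGFB1.

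A list of 60 other genes of BMP and activin signalling was described in the same way, and 44 of them reached 1 RPKM in any library. In *Hmga2*+/+ MEF 14 rose and 9 fell with TGFB1, and in *Hmga2*-/- MEF 12 rose and 11 fell, against 11.4% and 16.8% and then 13.1% and 15.1% of all genes. The median log2 change of the list was 0.01 and 0.12, against −0.05 and 0.01 over all genes. The counts for single roles below are to be read against the same shares. Between the genotypes, 2 were higher and 2 lower in *Hmga2*-/- Ctrl (median −0.01, against −0.02 over all genes, of which 2.37% and 1.64% were called), and 6 were higher and 2 lower in *Hmga2*-/- TGFB1 (median 0.02, against 0.04 over all genes, of which 3.11% and 1.98% were called). The plot of the pathway list shows 16 genes with a 2-fold change in at least 1 of these comparisons.

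Of the extracellular antagonists and modulators, 13 had sufficient levels: 5 rose and 1 fell in *Hmga2*+/+, and 5 rose and 2 fell in *Hmga2*-/- MEF. *Fstl3*, which like follistatin binds activins, rose from 2.21 to 10.5 and from 2.63 to 18.6 RPKM. *Bmper*, a BMP-binding protein gene, rose from 1.45 to 5.15 and from 1.81 to 6.05 RPKM, and *Tll1*, the gene of a protease that cleaves chordin, rose from 5.29 to 17.1 and from 5.09 to 30.5 RPKM. *Nog*, the gene of the BMP antagonist Noggin, went up from 0.464 to 0.99 RPKM in *Hmga2*+/+ MEF, and was at 1.38 and 1.78 RPKM in *Hmga2*-/- Ctrl and TGFB1. It passed the minimum of 1 RPKM only through the *Hmga2*-/- libraries. *Chrdl1*, a chordin-like antagonist gene, fell from 1.22 to 0.393 and from 0.613 to 0.283 RPKM. It passed the minimum only through *Hmga2*+/+ Ctrl, the library where it was highest.

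Of the intracellular SMADs and their inhibitors, 10 had sufficient levels, of which 4 rose and 2 fell in *Hmga2*+/+ and 3 rose and 2 fell in *Hmga2*-/- MEF. Both that fell belong to the BMP arm. *Smad9*, a receptor-activated SMAD of BMP signalling, went from 3.60 to 0.757 and from 3.06 to 0.563 RPKM (log2 change −2.25 and −2.44), and *Smad6*, an inhibitory SMAD that acts chiefly on BMP receptors and is itself a BMP target, went from 7.27 to 2.69 and from 7.23 to 3.13 RPKM (log2 change −1.44 and −1.21). *Smad9* passed the minimum of 1 RPKM only through its Ctrl libraries, where it was highest. *Smad7* and *Skil*, inhibitors induced by TGF-beta, rose. *Skil* went from 5.94 to 28.4 and from 5.10 to 29.7 RPKM, and *Smad7* from 6.40 to 10.6 and from 6.67 to 14.6 RPKM.

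Other targets of BMP signalling moved in both directions: of 4 with sufficient levels, 2 rose and 2 fell in either genotype. *Atoh8*, a bHLH factor gene, fell from 6.36 RPKM (892 reads) to 0.545 RPKM (78 reads) with *Hmga2*. Without *Hmga2* it fell from 5.34 RPKM (756 reads) to 0.112 RPKM (16 reads). The log2 changes of −3.54 and −5.58 differed by −2.03 (interval −2.82 to −1.24). Both TGFB1 levels of *Atoh8* are under 1 RPKM, and it passed the minimum only through its Ctrl libraries. A pseudocount of 1 RPKM shrinks changes at such low levels. The size of this difference therefore depends on how low values are treated, and it rests on 78 and 16 reads. The homeobox gene *Msx1* fell from 19.0 to 5.84 and from 22.0 to 5.13 RPKM. *Hey1*, a bHLH repressor gene that Notch also induces, rose from 0.333 to 0.715 and from 0.282 to 1.30 RPKM and passed the minimum only through *Hmga2*-/- TGFB1. The 3 E protein genes, partners of Id proteins, neither rose nor fell in any comparison.

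Of 5 further ligand genes with sufficient levels, 1 rose and 3 fell in *Hmga2*+/+, and 0 rose and 3 fell in *Hmga2*-/- MEF. *Gdf7* fell from 6.60 to 2.73 and from 3.83 to 0.841 RPKM and was lower in *Hmga2*-/- in both treatments (log2 difference −0.78 in Ctrl and −1.70 in TGFB1). *Gdf6* fell from 1.88 to 0.801 and from 2.59 to 1.56 RPKM. *Inhbb*, the gene of the activin beta B subunit, was at 0.616 RPKM in *Hmga2*+/+ Ctrl and 1.15 RPKM in *Hmga2*+/+ TGFB1, and at 1.53 and 1.71 RPKM in the *Hmga2*-/- libraries, with a log2 difference between the Ctrl libraries of 1.31 (interval 1.03 to 1.59). Of 9 receptor and co-receptor genes, 2 rose and 1 fell in *Hmga2*+/+, and 2 rose and 2 fell in *Hmga2*-/- MEF. *Rgma*, a BMP co-receptor gene, fell from 4.18 to 1.85 and from 4.29 to 1.80 RPKM. No receptor gene differed by 1.5-fold between the genotypes in Ctrl or in TGFB1 MEF.

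**Figure D4:**
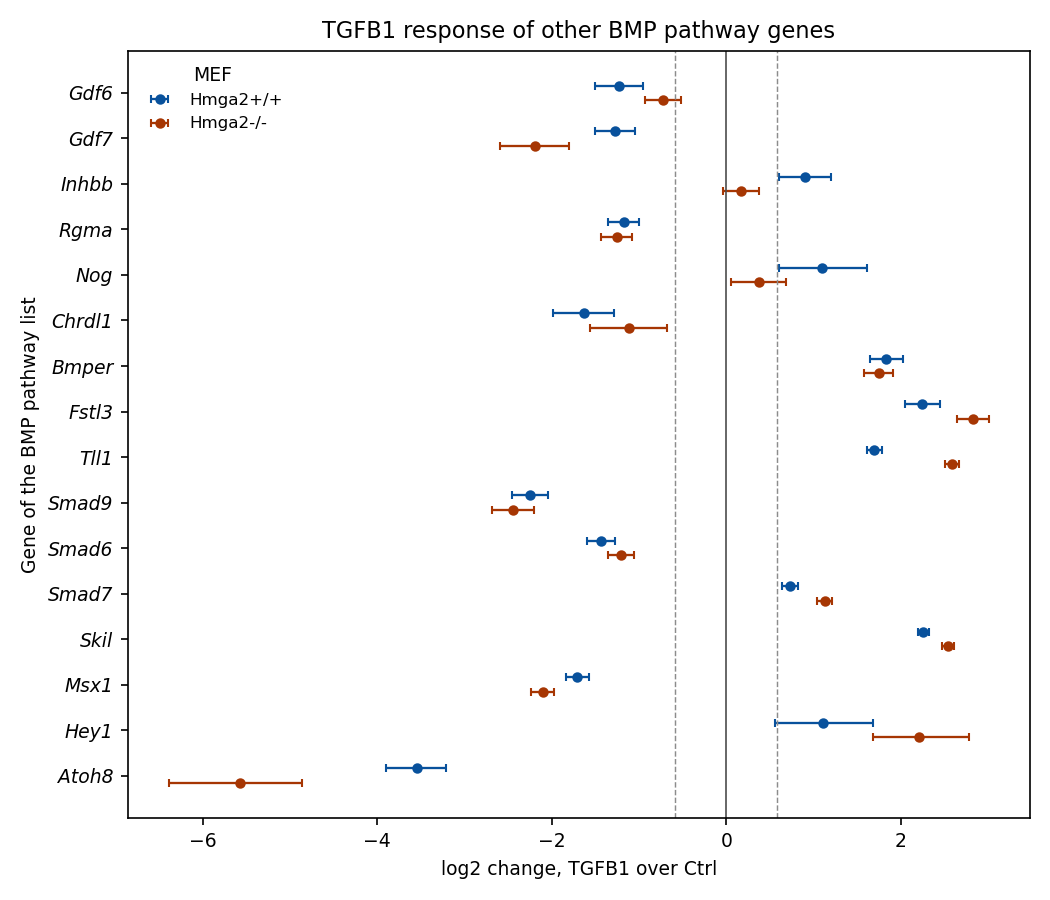
Log2 change with TGFB1 in *Hmga2*+/+ (blue) and *Hmga2*-/- (brown) MEF for 16 other pathway genes that reached 1 RPKM in any library and a 2-fold change in at least 1 comparison, with 95% counting intervals and dashed lines at 1.5-fold. *Atoh8* lies farthest to the left, at −5.58 in *Hmga2*-/- MEF, where its TGFB1 level was 0.112 RPKM. *Fstl3* and *Skil* are among the genes at the right.

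For each of the 10 genes, the protein-coding genes with the most similar course were sought among 9745 with at least 1 RPKM in all 4 libraries. Likeness was the Euclidean distance between log2 RPKM values centred on their mean over the 4 libraries, where 0 is an identical course. *Id2* and *Id3* were nearest to each other (distance 0.14), and *Cdkn1c*, a cyclin-dependent kinase inhibitor gene, came next for both, with 27.4, 4.37, 20.4 and 2.88 RPKM in *Hmga2*+/+ Ctrl, *Hmga2*+/+ TGFB1, *Hmga2*-/- Ctrl and *Hmga2*-/- TGFB1. *Id1* was nearest to *Zfp354c* and *Pfkm* (0.04 and 0.07). Among the genes compared, those nearest to *Id4* were farther off, with *S100a4* at 0.38 and *Adm* at 0.43. *Id4* itself is under 1 RPKM in both TGFB1 libraries, so genes that fall as low were not among those compared. *Bmp2* was nearest to *Prkg2* (0.16), a cGMP-dependent kinase gene, which rose from 3.27 to 34.4 and from 2.90 to 24.7 RPKM, and next to *Timp1* (0.34). *Inhba* was close to the transcription factor gene *Runx1* (0.12), *Grem1* was nearest to *Lsp1* and *Cndp2* (0.06 and 0.09), and *Fst* to the growth factor gene *Nrg1* and the chemokine gene *Ccl2* (0.09 and 0.11). *Bmp4* was nearest to *Mrpl23* and *Fig4* (0.02 and 0.05) and *Bambi* to *Pid1* and *Pcdh7* (both 0.02), as is easily reached by genes that vary little over 4 libraries.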

How the data were processed

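RNA-seq was done on 4 libraries of immortalised MEF, 1 per condition, with a stranded total RNA kit and single-end reads. Per the submitters' processing notes and the methods of the study, reads were trimmed with Trimmomatic, aligned with HISAT2 (2.1.0) and counted per UCSC transcript with HOMER. The authors deposited RPKM values on mm10, normalised to mapped reads and transcript length and written to 3 decimals. The file header names counting over exons on the transcript strand, whereas the methods name genes, and counting introns or not changes the level of a gene. The methods speak of duplicates of a single experiment, the table holds 1 column per condition, and whether that column pools the duplicates is not given in the sources used here. Genes antisense to *Id4*, *Bmp4*, *Inhba* and *Fst* overlap their loci, and no gene overlaps any of the 10 on its own strand. All 4 value columns were used, and 0 were left out.

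Transcripts were named from GENCODE release M21 where at least 50% of their span lay in a gene on the same strand. Of 63759 transcripts, 57708 were named. A value of 0 RPKM was set to 0.001, and genes without 1 RPKM in any library were left out of counts over all genes. Depth was derived from the steps of values under 50 reads, with 0.1 read as the tolerance for a whole number. Intervals are exact 95% intervals (Poisson for a level, binomial for a ratio of 2 libraries), and for the difference of responses the errors of both were combined. They cover counting error only and compare libraries. The steps ran under Python 3.11.15 with scipy 1.17.1, pandas 2.3.3 and numpy 2.4.6 and were tested on simulated data. The alternatives were rescaling by the median ratio, other pseudocounts, another transcript per gene, the sum of transcripts, a limit of 2-fold and no filter.

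The 10 genes, the pathway list and the marker lists were chosen with earlier results of these data known. Named were the 10 genes, the checks *Hmga2*, *Ctgf* and *Tagln*, the pathway genes with a 2-fold change and 1 RPKM in at least 1 library, and for each of the 10 genes the 2 nearest in course. A few genes that these rules name are not reported here, and they remain in the counts.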

Additional observations from a re-analysis of the deposited data

How the results depend on the processing

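No paired analysis was possible because each condition has 1 library and the labels give no replicate numbers, and for the first reason no library could be left out. Under 5 alternatives (rescaling by the median ratio, a pseudocount of 0.1 or 1 RPKM, the transcript with the highest mean, the sum of transcripts), 250 log2 changes of the 10 genes were recomputed. Of these, 0 changed sign and 235 stayed within their counting interval. Part of this was fixed in advance. Genes with 1 transcript cannot move under the settings that change the transcript. A pseudocount cannot turn the sign of a ratio of 2 libraries, and the rescaling factors were only 0.973 to 1.03. The totals are therefore no measure of robustness. The 15 that moved did so under the pseudocount of 1 RPKM, which shrinks changes of low genes. Under it 1 of the 10 genes was higher in *Hmga2*-/- Ctrl, 0 were higher in *Hmga2*-/- TGFB1 and 0 had a higher response, against 1.06%, 1.48% and 0.577% of all genes. Of the pathway list, 6 then fell in *Hmga2*-/- MEF, 1 was lower in *Hmga2*-/- Ctrl, and 3 were higher and 1 lower in *Hmga2*-/- TGFB1, against 9.91%, 0.596%, 1.48% and 0.643%. With a limit of 2-fold, 0 of the 10 genes were higher in *Hmga2*-/- Ctrl and 0 had a higher response, against 0.68% and 0.317% of all genes. Of the pathway list, 7 then rose in *Hmga2*+/+, 7 rose and 7 fell in *Hmga2*-/- MEF, 0 were lower in *Hmga2*-/- Ctrl and 0 higher in *Hmga2*-/- TGFB1, against 4.76%, 5.42%, 6.69%, 0.419% and 0.848%. Without the filter on low values, 18 pathway genes fell in *Hmga2*+/+ and 19 in *Hmga2*-/- MEF, 5 were higher and 6 lower in *Hmga2*-/- Ctrl, and 7 were lower in *Hmga2*-/- TGFB1, against 19.1%, 18.3%, 7.71%, 7.38% and 7.2%. Rescaling moved no count of the 10 genes or of the pathway list past these bounds, but turned the split of all genes for the difference of responses from 2.05% higher and 1.5% lower to 1.56% and 1.95%, and for TGFB1 in *Hmga2*+/+ MEF from 11.4% and 16.8% to 14% and 13.9%. Depth limits *Id4* most, with 34 reads in *Hmga2*+/+ TGFB1.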

Other observations

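Several of the genes had more than 1 transcript in the table. The second transcript of *Bmp4* was at 13.8, 12.2, 18.7 and 12.9 RPKM in *Hmga2*+/+ Ctrl, *Hmga2*+/+ TGFB1, *Hmga2*-/- Ctrl and *Hmga2*-/- TGFB1, close to the transcript described. The other 2 transcripts of *Fst* had log2 changes with TGFB1 of 1.17 and 1.16 in *Hmga2*+/+ and both 0.90 in *Hmga2*-/- MEF. Of the *Grem1* transcripts, one of 554 bases was at 2.96, 9.11, 4.18 and 11.0 RPKM in the same order. A single-exon transcript of 3146 bases at the *Grem1* locus was at 0.108, 0.51, 0.236 and 0.519 RPKM, with 19, 92, 42 and 93 reads.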
